A study of Homo sapiens with 11 samples.

Results

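The genes described here are 39 genes of DNA replication and nucleotide synthesis, taken by gene symbol from a table of 60605 features. They comprise the 6 subunits of the MCM2-7 helicase, 10 genes of origin licensing and firing, 6 polymerase and primase subunits and 8 genes of the sliding clamp, its loader and strand maturation. A further 4 genes serve nucleotide synthesis and 5 are regulators of the G1 to S transition. All 39 were found, and all 39 reached the minimum for testing, which asked for 2 or more libraries with a value of 10 or more.

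Polyadenylated RNA was sequenced from ARPE-19, an established human line derived from retinal pigment epithelium (RPE), the pigmented layer that supports the photoreceptors. Stable lines expressed, for 4 days, GFP (a fluorescent protein, the control, 3 libraries), Oct4, Sox2, Klf4, or Oct4, Sox2 and Klf4 together (OSK), with 2 libraries for each of the last 4 groups. In the library names all 4 factor lines carry the suffix mC, which the GFP libraries lack and whose meaning is not given in the sources used here, so it cannot be told apart from the factors. Every group, the control included, thus carried an introduced open reading frame, whose species and promoter are not named in the sources used here. The labels do not say that libraries of a group came from separate cultures, nor how many clones each line holds, so p-values measure only the spread between these samples, which may be technical. Levels are given as normalised counts, the authors' gene counts divided by 1 factor per library, and changes as differences of log2(normalised count + 1).

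Replication starts at origins that are licensed in G1, when the origin recognition complex, CDC6 and CDT1 load the ring-shaped MCM2-7 helicase onto DNA. At the entry into S phase CDC45 and the GINS complex join the helicase, primase and polymerase alpha lay down primers, and polymerases delta and epsilon extend them, held to DNA by the PCNA clamp. Many of these genes are transcribed in late G1 through E2F factors, which are released from RB proteins once cyclin E and other cyclins activate their kinases. Mature RPE cells of the eye rarely divide, while ARPE-19 cells grow in culture.

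As E2F strings, TTCCCGC was searched on both strands, likewise TTGGCGC, then also TTCGCGC and in the same way TTGCCGC, in RefSeq promoter windows (GRCh38.p14, 250 bases before to 50 after the annotated start), which were found for 33 of the 39 genes. At least 1 string was present in 25 of the 33 windows (75.8%), against 13.1% of all 27305 windows and 19.9% of the 12054 windows of tested genes. The 5 stretches printed here are the 100 bases before the start, 5′ to 3′ on the gene's strand, with E2F strings in capitals. E2F1, MCM6 and CDT1 are shown as genes that rose with Sox2, Klf4 and OSK and hold a string, MCM7 as one that holds a string and did not rise, and TK1 as one of the 2 largest risers, which holds none. They lie at chr20:33686386-33686485 (minus strand), chr2:135876444-135876543 (minus), chr7:100101398-100101497 (minus), chr16:88803689-88803788 (plus) and chr17:78187205-78187304 (minus).
E2F1: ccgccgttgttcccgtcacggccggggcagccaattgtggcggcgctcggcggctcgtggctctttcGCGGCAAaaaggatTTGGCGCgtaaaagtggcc
MCM6: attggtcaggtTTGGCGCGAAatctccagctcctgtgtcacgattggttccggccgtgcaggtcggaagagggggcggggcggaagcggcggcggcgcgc
MCM7: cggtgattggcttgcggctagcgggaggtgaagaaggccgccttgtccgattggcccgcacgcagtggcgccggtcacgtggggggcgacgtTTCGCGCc
CDT1: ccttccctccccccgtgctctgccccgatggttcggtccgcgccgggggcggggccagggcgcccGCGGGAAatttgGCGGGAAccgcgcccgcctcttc
TK1: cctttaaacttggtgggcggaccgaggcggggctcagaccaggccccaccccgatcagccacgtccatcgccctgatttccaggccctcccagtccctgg

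Within the 100 bases printed, the 2 strings of E2F1 begin 33 and 19 bases before the start and lie on opposite strands, those of CDT1 begin 35 and 23 bases before it, and 1 of MCM7 begins 8 bases before it. In MCM6, 2 begin 89 and 86 bases before the start and share bases. The whole windows hold 4 strings for MCM6 and 3 for MCM7. E2F strings were not found in the windows of ORC6, MCM10, CDC45, POLD1, FEN1, RRM2, TK1 and CCNE1. Of those 8 genes 6 were higher with Klf4 than with GFP, and of the 25 with a string 18 were, against 17.6% of all genes. The median changes without and with a string were 1.73 and 0.77 with Klf4, and 1.66 and 0.53 with Sox2. They were 1.67 and 0.79 with OSK, and -0.08 and -0.05 with Oct4. A link between strings and changes was not tested. The other strings searched, on both strands, were CCAAT (18 of 33 windows, against 35.7% of all and 36.2% of those of tested genes), the GC box GGGCGG (23 of 33, against 44.6%, and 68.3%), CACCC of KLF factors (13 of 33, against 58.9% and 63.5%) and the cell-cycle strings TTTGAA and TTCGAA (2 of 33, against 16.6% and 11.2%). The octamer ATGCAAA of Oct4 was in 1 of 33 windows (4.51% of all and 2.99% of those of tested genes) and the SOX strings ACAAAG and ACAATG in 4 of 33 (24.6% and 16.6%). E2F strings and the GC box can share bases. A match is a description of these letters and not a measured binding site.

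The libraries held between 15053300 and 19791775 recovered reads. GFP replicate 1 and OSK replicate 1 stood apart in having reads in 42956 and 32493 features, against 25853 to 26971 in the other 9 libraries, and counts without them are given beside the results. Each delivered factor was high in its own line and in OSK: POU5F1 (Oct4) read 66823 to 67326 in the Oct4 libraries, 19020.4 to 19542 in OSK and at most 446 elsewhere. SOX2 read 29106 to 29141 with Sox2, 17582 to 17764 with OSK and at most 197 elsewhere, and KLF4 read 22142 to 24205 with Klf4, 24202 to 24469.8 with OSK and at most 248 elsewhere. Of 14 RPE markers 12 reached a value of 10, while RPE65 and TTR, which define mature RPE, stayed at or below 4.97 in every library. The summed RPE markers were 33563 to 37255 in GFP, 18520 to 19090 in Oct4, 21516 to 22197 in Sox2, 26136 to 29294 in Klf4 and 16030 to 16314 in OSK, and their part in the results was not tested. KRT8 and KRT18 made up most of this sum, and single markers differed from it: with Klf4, RDH5 read 412 to 512 against 67.1 to 83.4 in GFP, and PMEL 1184 to 1356 against 4094 to 6067. The 7 fibroblast markers summed to 13886 to 16433 in GFP, 10295 to 13231 in Oct4, 12839 to 15528 in Sox2, 7299.6 to 8537 in Klf4 and 5147 to 5952 in OSK, with DCN at or below 5.96, and 6 markers of pluripotent cells to 273 to 700.1 over all libraries. COL1A1 and PDGFRB made up most of the fibroblast sum and went opposite ways with Sox2, where COL1A1 read 7029 to 8369 against 2884 to 4845 in GFP and PDGFRB 5770 to 7099 against 10874 to 11534. In bulk RNA, a different share of cycling cells and a different amount of RNA per cell cannot be told apart.

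The replication genes were higher than in GFP in the Sox2, Klf4 and OSK lines, and mixed in the Oct4 line. Summed over the 39 genes, the normalised counts were 11468 ± 128 in GFP (SD, n = 3), 9407 ± 416 in Oct4, 14016 ± 183 in Sox2, 18135 ± 561 in Klf4 and 18357 ± 17.2 in OSK (SD, n = 2 each). The sum with OSK was thus 160% of that in GFP, and the sum with Oct4 was 82.0%. The libraries of Oct4, GFP and Sox2 did not overlap in this sum, while those of OSK lay within the range of the Klf4 libraries.

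With Klf4, 29 of the 39 genes passed the test as higher than in GFP and 1 (CCNE1) as lower, where 33.5% of all 18828 genes tested passed in either direction, 17.6% as higher and 16.0% as lower. With OSK, 28 were higher (26 by DESeq2), against 39.7% of all genes called in either direction and 19.7% as higher. With Sox2, 22 were higher and 1 (MCM7) lower, against 41.6% in either direction and 21.7% as higher, and 19.9% as lower. With Oct4, 4 were higher and 10 lower, against 37.3% in either direction, 20.1% as higher and 17.2% as lower. The share called with Oct4 (14 of 39) was thus near that of all genes. The 10 lower genes include E2F8, which had 0 reads in both Oct4 libraries. The Oct4 count depended on single libraries, with 6 calls without Oct4 replicate 1 and 8 without Oct4 replicate 2, and TMM scaling gave 5 higher and 6 lower. The median change of the 39 genes was 0.79 with Klf4, 0.81 with OSK, 0.64 with Sox2 and -0.05 with Oct4 on the log2 scale, while the median over all genes lay between -0.02 and -0.01. All 4 comparisons share the GFP libraries. Without GFP replicate 1 and OSK replicate 1 the calls were 29 higher with Klf4, 27 with OSK and 25 with Sox2, and 4 higher and 11 lower with Oct4.

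**Figure D1:**
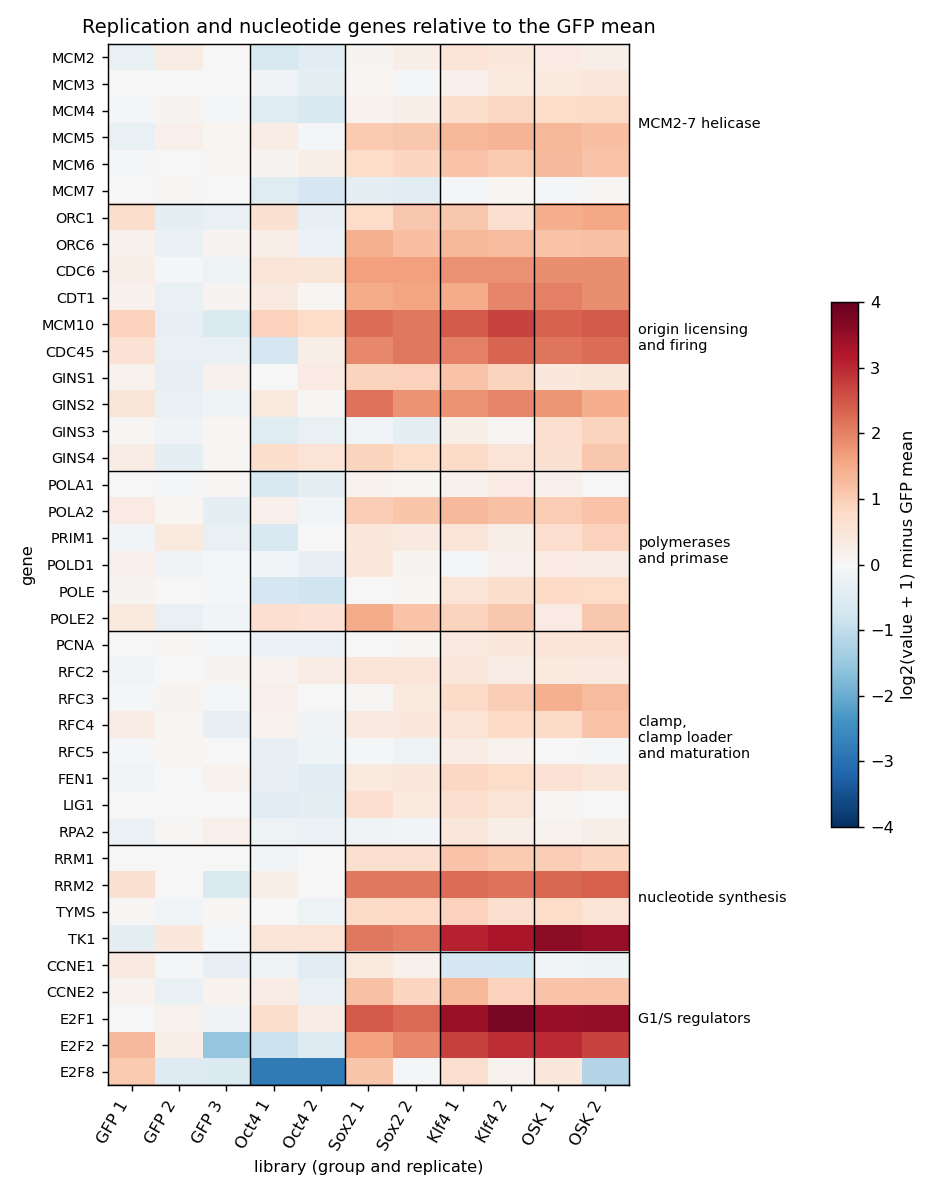
Each cell is the log2 of a gene's normalised count + 1 in 1 library minus the mean of the 3 GFP libraries, for the 39 genes (rows, ordered by role) in 11 libraries (columns). Most rows are red in the Sox2, Klf4 and OSK columns, and E2F1 and TK1 are the deepest red in the Klf4 and OSK columns, at 3.17 to 3.64 above GFP in the fit.

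Across the 4 comparisons with GFP, which share the GFP libraries, the genes showed several patterns of calls. How often these patterns occur among all genes tested was not counted, so they are not shown to be particular to these genes. The most frequent, with 14 genes, was a rise with Sox2, Klf4 and OSK and no call with Oct4: MCM5, MCM6, ORC6, CDT1, MCM10, CDC45, GINS2, POLA2, RFC2, RRM1, RRM2, TYMS, CCNE2 and E2F2. CDC6, GINS4, TK1 and E2F1 passed as higher in all 4 lines, and their Oct4 calls depended on the fit. By limma, 0 genes were called higher with Oct4 in a fit of only the compared groups (4 at an unadjusted p under 0.05) and 0 without Oct4 replicate 1 (3 at an unadjusted p under 0.05), and DESeq2 called 2. MCM3, MCM4, POLE and PCNA fell with Oct4 and rose with Klf4 and OSK. Only POLD1 and RFC5 passed in none of the 4 comparisons, and a miss of the threshold does not show that their levels were equal.

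**Figure D2:**
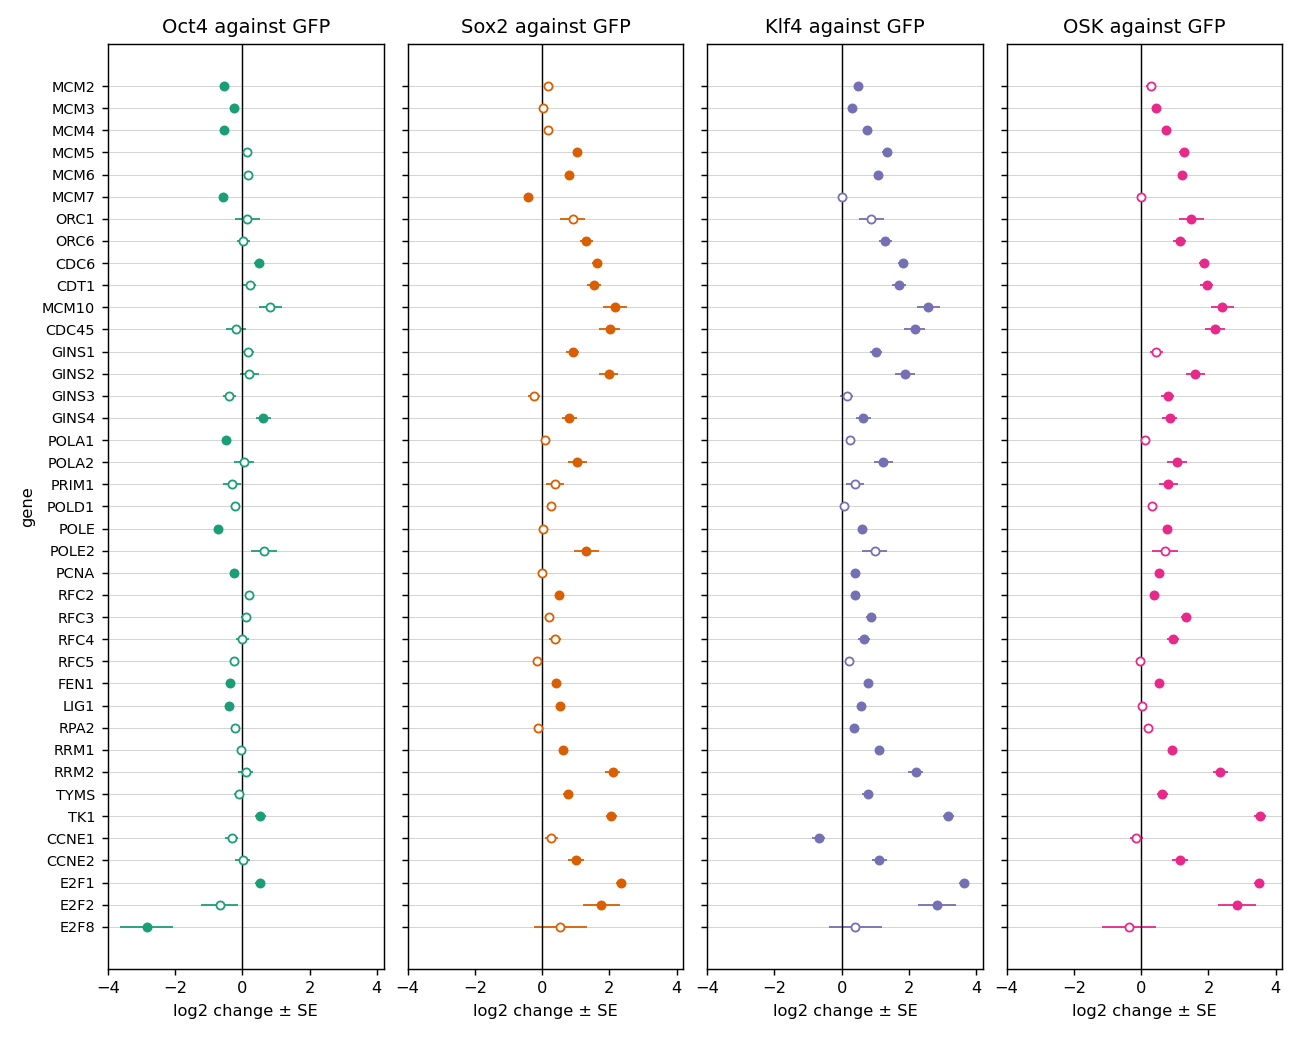
Points are log2 changes from GFP with their standard errors for the 39 genes (rows) in the Oct4, Sox2, Klf4 and OSK lines (panels), filled where limma's adjusted p was under 0.05. The points of the Klf4 and OSK panels lie mostly right of 0, up to 3.64, and those of the Oct4 panel on both sides; the E2F8 point in the Oct4 panel is fitted against libraries with 0 reads.

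The MCM2-7 genes encode the 6 subunits of the replicative helicase, and they did not move as 1 unit. MCM5 and MCM6 rose in the Sox2, Klf4 and OSK lines, MCM3 and MCM4 rose with Klf4 and OSK and fell with Oct4, MCM2 rose with Klf4 and fell with Oct4, and MCM7 rose in no line. In counts, 5 of 6 were higher with Klf4 (against 17.6% of all genes), 4 with OSK (19.7%) and 2 with Sox2 (21.7%), where MCM7 was lower. With Oct4 4 were lower, against 17.2% of all genes. MCM5 read 223, 316 and 289.7 in GFP, 337 and 267 with Oct4, 561 and 575 with Sox2, 685 and 700.4 with Klf4 and 683 and 634 with OSK. Every Sox2, Klf4 and OSK library was above every GFP and Oct4 library. The rise was 1.05 with Sox2 (SE 0.13, limma adjusted p = 7.29e-06), 1.34 with Klf4 (SE 0.13, limma adjusted p = 9.40e-07) and 1.26 with OSK (SE 0.13, limma adjusted p = 1.20e-06). MCM6 read 326, 337 and 359 in GFP, 367 and 404 with Oct4, 562 and 615 with Sox2, 754 and 702 with Klf4 and 831 and 748 with OSK. Its groups ran in the order GFP, Oct4, Sox2, Klf4, OSK, though neither Oct4 against GFP (adjusted p = 0.141, limma) nor OSK against Klf4 (adjusted p = 0.477, limma) passed the test. Its rise was 0.79, 1.09 and 1.21 with Sox2, Klf4 and OSK (SE 0.09 each).

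MCM4 read 637, 705 and 635 in GFP, 475 and 429 with Oct4, 725 and 775 with Sox2, 1079 and 1157 with Klf4 and 1098 and 1109.8 with OSK. It was thus lowest in both Oct4 libraries and highest in the Klf4 and OSK libraries, with no overlap of either with GFP. It fell by 0.54 on the log2 scale with Oct4 (SE 0.08, limma adjusted p = 6.35e-05) and rose by 0.76 with Klf4 (SE 0.08, limma adjusted p = 2.28e-06). MCM3, the helicase gene with the smallest changes, read 1268, 1252 and 1244 in GFP, 1129.8 and 965 with Oct4, 1313 and 1224 with Sox2, 1447 and 1657 with Klf4 and 1649 and 1722 with OSK. It rose by 0.43 with OSK (SE 0.08, limma adjusted p = 0.000529) and 0.30 with Klf4 (SE 0.08, limma adjusted p = 0.00879), and fell by 0.27 on the log2 scale with Oct4 (SE 0.08, limma adjusted p = 0.0174). MCM3's fall did not pass without Oct4 replicate 2 (-0.15, adjusted p = 0.263, limma), with TMM scaling (adjusted p = 0.185, limma) or with no filter (adjusted p = 0.0567, limma), nor its Klf4 rise without Klf4 replicate 2 (0.205, adjusted p = 0.147, limma). MCM2 read 276, 414 and 339 in GFP, 217 and 251 with Oct4, 366 and 408 with Sox2, 499 and 458 with Klf4 and 426 and 397 with OSK. Its GFP libraries spread the most of the 6, and both Oct4 libraries lay below them. It fell by 0.53 on the log2 scale with Oct4 (SE 0.14, limma adjusted p = 0.00626) and rose by 0.50 with Klf4 (SE 0.14, limma adjusted p = 0.0112). An antisense gene covers 22.7% of the exon bases of MCM2. Neither call of MCM2 passed without replicate 1 of the line concerned (adjusted p = 0.0859 with Oct4 and 0.101 with Klf4, limma).

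MCM7, by level the most abundant helicase gene per kilobase of exon, read 2527, 2635 and 2554 in GFP, 1852 and 1622 with Oct4, 1977 and 1903 with Sox2, 2503 and 2694 with Klf4 and 2419.6 and 2672 with OSK. The Oct4 and Sox2 libraries lay below all others, and the Klf4 and OSK libraries overlapped GFP. MCM7 fell by 0.57 on the log2 scale with Oct4 (SE 0.07, limma adjusted p = 1.39e-05) and by 0.41 with Sox2 (SE 0.07, limma adjusted p = 0.000291). The 6 subunits are assembled in equal number, but their transcripts were far from equal. Per kilobase of exon (GENCODE 29 lengths, which may differ from the authors' annotation), the level of MCM7 was 14.0 to 18.9 times that of MCM5, the lowest, in the 3 GFP libraries. The ratio of the highest to the lowest of the 6 was 9.53 to 10.2 with Oct4, 5.53 to 6.04 with Sox2, 6.12 to 6.57 with Klf4 and 6.35 to 7.52 with OSK. No library of the other 4 lines overlapped GFP in this ratio.

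**Figure D3:**
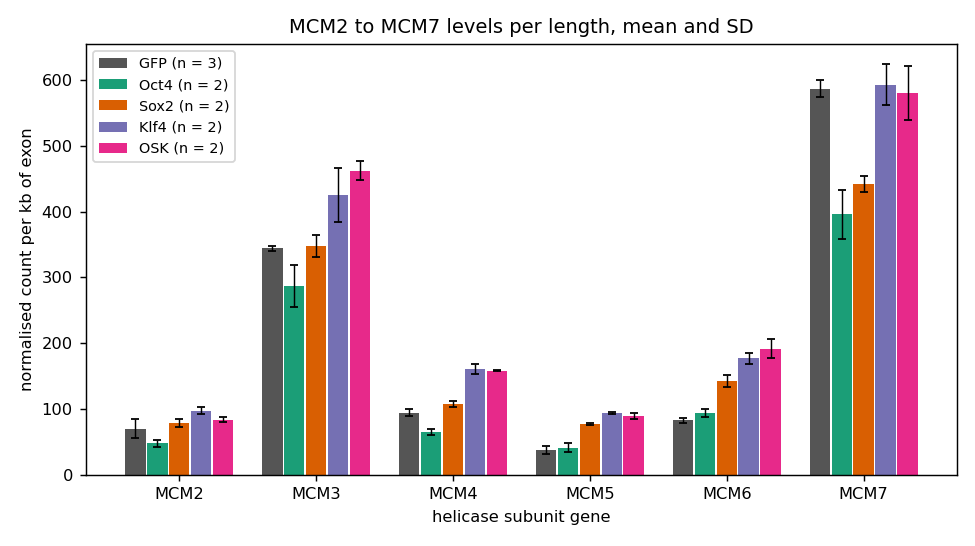
Mean normalised count per kilobase of exon with its SD for MCM2 to MCM7 in the 5 groups (n = 3 for GFP and 2 for each other group). MCM7 is highest in each group, at 586 ± 12.8 in GFP, and MCM5 is lowest in GFP, at 37.6 ± 6.48, while with OSK it is at 89.7 ± 4.76 and MCM2 is lowest, at 84.0 ± 4.18.

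The 10 genes of origin licensing and firing mostly rose with Sox2 and with Klf4 (8 of 10 higher in each) and with OSK (9). With Oct4 2 were higher (CDC6 and GINS4). Of all genes 21.7%, 17.6%, 19.7% and 20.1% were called higher in these comparisons, so that the count with Oct4 was near the share of all genes. MCM10, which helps to activate the loaded helicase, read 34.8, 14.2 and 11.7 in GFP, 34.8 and 30.9 with Oct4, 88.6 and 80.5 with Sox2, 104 and 122 with Klf4 and 96.5 and 103 with OSK. All 6 Sox2, Klf4 and OSK libraries lay above the other 5, while GFP replicate 1 was as high as the Oct4 libraries. The rise was 2.17 with Sox2 (SE 0.34, limma adjusted p = 8.81e-05), 2.58 with Klf4 (SE 0.34, limma adjusted p = 2.41e-05) and 2.41 with OSK (SE 0.34, limma adjusted p = 3.48e-05). CDC45, a part of the active helicase, read 39.7, 21.2 and 21.4 in GFP, 16.3 and 32.0 with Oct4, 102 and 116 with Sox2, 109.9 and 135 with Klf4 and 119 and 129 with OSK. Its lowest Sox2, Klf4 or OSK library exceeded its highest GFP or Oct4 library. The changes were 2.01 with Sox2 (SE 0.31, limma adjusted p = 6.11e-05), 2.17 with Klf4 (SE 0.31, limma adjusted p = 4.51e-05) and 2.20 with OSK (SE 0.31, limma adjusted p = 2.86e-05). GFP replicate 1 was the highest GFP library for both genes. Without it their rises with Sox2, Klf4 and OSK were larger, at 2.63 to 3.04 for MCM10 and 2.30 to 2.48 for CDC45. With Oct4, MCM10 was not called (0.83, limma adjusted p = 0.0709), but it passed as higher without GFP replicate 1 (1.29, limma adjusted p = 0.000493).

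Of the genes that load the helicase, CDC6 and CDT1 were highest by mean with OSK, then Klf4, Sox2, Oct4 and GFP, while ORC6 was highest with Sox2. CDC6 was at 71.1 ± 12.7 in GFP (SD, n = 3), 99.7 ± 1.83 with Oct4, 222 ± 2.28 with Sox2, 252 ± 2.17 with Klf4 and 258 ± 0.44 with OSK (SD, n = 2 each), so that OSK was 3.62 times GFP. Its rise with Oct4 (0.50, limma adjusted p = 0.0161) passed neither with DESeq2 (adjusted p = 0.0919) nor when either Oct4 library was left out. CDT1 was at 47.9 ± 8.22 in GFP and 186 ± 15.1 with OSK, 3.88 times as high. ORC6, a subunit of the origin recognition complex, rose by 1.32 with Sox2, 1.30 with Klf4 and 1.15 with OSK (SE 0.20 each). ORC1, the largest subunit of that complex, passed with OSK (1.49, limma adjusted p = 0.0045) and not with Sox2 or Klf4 (adjusted p = 0.0622 and 0.0816, limma). OSK against Klf4 did not pass for ORC1 (adjusted p = 0.352, limma), so a difference between these lines was not shown.

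The 4 subunits of the GINS complex had 4 different patterns of calls, which rest in part on values near the threshold. GINS2 rose by 1.98 with Sox2, 1.88 with Klf4 and 1.61 with OSK (SE 0.29 each). GINS1 rose by 0.91 with Sox2 and 1.02 with Klf4, and at 101 and 103 with OSK it was not called against GFP (limma adjusted p = 0.0657). Without GFP replicate 1 its OSK rise passed (0.52, limma adjusted p = 0.0459). GINS3 read 76.5, 66.8 and 77.8 in GFP, 52.2 and 59.5 with Oct4, 68.4 and 56.5 with Sox2, 86.8 and 77.7 with Klf4 and 117 and 139 with OSK. Both OSK libraries of GINS3 lay above all 9 others, and its rise was 0.79 against GFP (SE 0.19, limma adjusted p = 0.00375) and 0.63 against Klf4 (SE 0.210, limma adjusted p = 0.044). The difference from Klf4 did not pass with DESeq2 (adjusted p = 0.127) or when any Klf4 or OSK library was left out, and the rise over GFP did not pass without OSK replicate 2 (0.66, adjusted p = 0.0618, limma). GINS4 rose by 0.62 to 0.84 in the 4 lines, and each of these calls was lost when a single library was left out (adjusted p of up to 0.210, limma). About 21.2% of the exon bases of GINS4 and 10.9% of those of GINS3 overlap an antisense gene, and the use of strand in counting is not given in the sources used here.

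Of the 6 polymerase and primase genes, 2 rose with Sox2 and with Klf4 (33.3% each), 3 rose with OSK and 2 fell with Oct4 (33.3%). Of all genes 41.6%, 33.5%, 39.7% and 37.3% were called in these comparisons in either direction. POLE, the catalytic subunit of polymerase epsilon, which extends the leading strand, read 774, 721 and 680.5 in GFP, 449 and 420.0 with Oct4, 717 and 772 with Sox2, 1051 and 1173 with Klf4 and 1263 and 1215 with OSK. The Oct4 libraries lay below and the Klf4 and OSK libraries above all GFP libraries, and Sox2 overlapped GFP. POLE fell by 0.74 on the log2 scale with Oct4 (SE 0.08, limma adjusted p = 3.19e-06) and rose by 0.62 with Klf4 (SE 0.08, limma adjusted p = 2.59e-05) and 0.77 with OSK (SE 0.08, limma adjusted p = 1.68e-06). Its accessory subunit POLE2 differed from it in its calls: it read 16.9, 10.1 and 11.7 in GFP, 20.9 and 19.5 with Oct4, 37.0 and 29.1 with Sox2, 24.3 and 27.4 with Klf4 and 16.3 and 27.5 with OSK. POLE2's changes with Klf4 (0.98, limma adjusted p = 0.058) and OSK (0.71, limma adjusted p = 0.157) did not pass, though POLE's were no more than slightly larger. Without GFP replicate 1 its Klf4 change passed (1.18, limma adjusted p = 0.0242). POLE2 passed in the comparison of Sox2 with GFP (1.31, SE 0.38, limma adjusted p = 0.0103), and not without Sox2 replicate 1 (adjusted p = 0.102, limma).

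POLA2, the B subunit of polymerase alpha, read 27.8, 23.3 and 16.5 in GFP, 25.6 and 20.6 with Oct4, 44.9 and 48.8 with Sox2, 55.5 and 51.4 with Klf4 and 45.5 and 49.5 with OSK. The Sox2, Klf4 and OSK libraries were all above GFP and Oct4, with rises of 1.05, 1.24 and 1.07 (SE 0.29 each), of which those with Sox2 and OSK did not pass without replicate 2 of the line (adjusted p = 0.0628 and 0.0637, limma). A gene model on the same strand shares 35.1% of the exon bases of POLA2, and its part in these values was not tested. POLA1, the catalytic subunit, fell by 0.49 on the log2 scale with Oct4 (SE 0.11, limma adjusted p = 0.00281), which did not pass without Oct4 replicate 1 (adjusted p = 0.0566, limma). PRIM1, the catalytic primase subunit, passed with OSK (0.81, limma adjusted p = 0.0279), but not with DESeq2 (adjusted p = 0.0803) or without either OSK library. POLD1, the catalytic subunit of polymerase delta, read 601, 476 and 494 in GFP, 481 and 412 with Oct4, 698 and 563 with Sox2, 497 and 595 with Klf4 and 656 and 641 with OSK. Its largest difference from GFP was 0.32 with OSK (SE 0.12, limma adjusted p = 0.0516), but OSK exceeded Oct4 by 0.54 (SE 0.13, limma adjusted p = 0.00397).

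Of the 8 genes of the clamp, the clamp loader and strand maturation, 7 were higher with Klf4, 5 with OSK and 3 with Sox2, and 3 were lower with Oct4. The shares of all genes called higher were 17.6%, 19.7% and 21.7%, and 17.2% were lower with Oct4. In either direction 37.5% of the 8 genes were called with Sox2 and with Oct4, near the 41.6% and 37.3% of all genes. PCNA, the sliding clamp, read 1130.1, 1176 and 1115 in GFP, 963 and 969 with Oct4, 1124 and 1173 with Sox2, 1477 and 1539 with Klf4 and 1615 and 1666 with OSK. Sox2 overlapped GFP, Oct4 lay below it, and Klf4 and OSK lay above it. The rise was 0.40 with Klf4 (SE 0.07, limma adjusted p = 0.000156) and 0.52 with OSK (SE 0.07, limma adjusted p = 8.18e-06). The fall with Oct4 was -0.24 (SE 0.07, limma adjusted p = 0.00871) and passed neither with TMM scaling (adjusted p = 0.230, limma) nor without Oct4 replicate 1 (adjusted p = 0.0513, limma).

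RFC2 to RFC5 encode the small subunits of the clamp loader. RFC3 read 124, 139.6 and 125 in GFP, 149 and 130.5 with Oct4, 134 and 171 with Sox2, 219.8 and 258 with Klf4 and 348 and 311 with OSK. It was the gene of this role that rose the most, by 1.34 with OSK (SE 0.14, limma adjusted p = 1.80e-06) and 0.87 with Klf4 (SE 0.14, limma adjusted p = 0.000191). OSK exceeded Klf4 by 0.46 (SE 0.16, limma adjusted p = 0.0471), which did not pass with DESeq2 (adjusted p = 0.0989) or without any 1 of the Klf4 or OSK libraries. RFC4 read 137, 116 and 89.4 in GFP, 124 and 102 with Oct4, 145 and 152 with Sox2, 164 and 194 with Klf4 and 191 and 251 with OSK, and rose by 0.66 with Klf4 (SE 0.19, limma adjusted p = 0.0117) and 0.95 with OSK (SE 0.19, limma adjusted p = 0.000637). The Klf4 rise of RFC4 did not pass without GFP replicate 3 (adjusted p = 0.0525, limma) or Klf4 replicate 2 (adjusted p = 0.116, limma). RFC2 rose by 0.52 with Sox2 and 0.39 and 0.38 with Klf4 and OSK, the last 2 not passing with DESeq2 (adjusted p = 0.0771 and 0.0754). RFC5 read 206, 229.6 and 218 in GFP, 173 and 195 with Oct4, 204 and 189 with Sox2, 267 and 239.9 with Klf4 and 217 and 207 with OSK, and no line was called against GFP.

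FEN1, the nuclease that trims Okazaki fragments, and LIG1, the ligase that joins them, differed in their calls in the OSK line, where FEN1 rose and LIG1 did not pass. FEN1 read 309.8, 326 and 363 in GFP, 266 and 245 with Oct4, 439 and 450.4 with Sox2, 596 and 555 with Klf4 and 498 and 459.8 with OSK. It was below GFP in both Oct4 libraries and above it in all Sox2, Klf4 and OSK libraries, with changes of -0.38, 0.42, 0.79 and 0.53 (SE 0.10 each), and its Oct4 fall did not pass with TMM scaling (adjusted p = 0.0816, limma) or without Oct4 replicate 2 (adjusted p = 0.0661, limma). LIG1 read 366, 360.1 and 369 in GFP, 274 and 284 with Oct4, 582 and 478 with Sox2, 573 and 518 with Klf4 and 378 and 371 with OSK. Its Oct4 libraries were the lowest, its Sox2 and Klf4 libraries the highest, and its OSK libraries lay just above the GFP libraries. LIG1 fell by 0.39 on the log2 scale with Oct4 (SE 0.10, limma adjusted p = 0.00549), not passing with TMM scaling (adjusted p = 0.0610, limma), and rose by 0.53 with Sox2 (SE 0.10, limma adjusted p = 0.000399) and 0.57 with Klf4 (SE 0.10, limma adjusted p = 0.000281). OSK was lower than Klf4 by -0.54 (SE 0.11, limma adjusted p = 0.00174) and lower than Sox2 by -0.49 (SE 0.11, limma adjusted p = 0.00165). RPA2, a subunit of the single-strand binding protein, passed with Klf4 (0.36, limma adjusted p = 0.0214), and not with DESeq2 (adjusted p = 0.0563), TMM scaling (adjusted p = 0.0576, limma) or without GFP replicate 1 (adjusted p = 0.0665, limma).

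All 4 nucleotide synthesis genes were higher with Sox2, Klf4 and OSK, and 1 of them, TK1, with Oct4. Among all genes 21.7%, 17.6% and 19.7% were called higher with Sox2, Klf4 and OSK, and 20.1% with Oct4. TK1, the thymidine kinase of dividing cells, read 62.6, 109 and 79.7 in GFP, 118 and 119 with Oct4, 353 and 336 with Sox2, 695 and 799 with Klf4 and 988 and 919.5 with OSK. The lines were ordered GFP, Oct4, Sox2, Klf4, OSK with no overlap between libraries of neighbouring lines, and the mean with OSK was 11.4 times that with GFP. The rise was 2.06 with Sox2 (SE 0.17, limma adjusted p = 6.55e-08), 3.17 with Klf4 (SE 0.17, limma adjusted p = 1.11e-09) and 3.53 with OSK (SE 0.17, limma adjusted p = 2.35e-10), while OSK against Klf4 did not pass (adjusted p = 0.205, limma). The rise with Oct4 was 0.53 (SE 0.17, limma adjusted p = 0.0203) and did not pass without GFP replicate 1 (0.34, adjusted p = 0.0545, limma) or without either Oct4 library.

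Ribonucleotide reductase makes deoxynucleotides from ribonucleotides and pairs a large subunit, RRM1, with a small one, RRM2. RRM2 read 130.1, 84.0 and 57.4 in GFP, 99.9 and 84.7 with Oct4, 370.2 and 374 with Sox2, 403 and 392 with Klf4 and 429 and 453 with OSK. Every Sox2, Klf4 and OSK library was far above the other 5, with rises of 2.11, 2.20 and 2.35 (SE 0.23 each). A gene model on the same strand shares 20.2% of the exon bases of RRM2. RRM1 rose by 0.64, 1.10 and 0.92 (SE 0.08 each). The level of RRM2 per kilobase of exon relative to RRM1 was 0.0969 to 0.225 in GFP, 0.145 to 0.185 with Oct4, 0.410 to 0.414 with Sox2, 0.314 to 0.325 with Klf4 and 0.370 to 0.433 with OSK, with no overlap between these 3 lines and GFP. TYMS, the thymidylate synthase, read 100.3, 89.0 and 99.2 in GFP, 95.2 and 83.5 with Oct4, 164 and 167 with Sox2, 182 and 149.7 with Klf4 and 159 and 139.7 with OSK. It rose by 0.78 with Sox2 (SE 0.15, limma adjusted p = 0.000638), 0.77 with Klf4 (SE 0.15, limma adjusted p = 0.000955) and 0.63 with OSK (SE 0.15, limma adjusted p = 0.0036), the last not passing without OSK replicate 1 (adjusted p = 0.0564, limma). The opposite-strand gene ENOSF1 covers 39.2% of the exon bases of TYMS, so reads of these 2 genes may be shared.

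Among the G1 to S regulators 3 of 5 were higher with Sox2, Klf4 and OSK, against 21.7%, 17.6% and 19.7% of all genes. E2F1, an activator of replication genes and itself an E2F target, read 70.5, 76.9 and 64.2 in GFP, 116 and 87.0 with Oct4, 388 and 342 with Sox2, 783 and 1001 with Klf4 and 801 and 822 with OSK. The mean was 5.18 times GFP with Sox2, 12.6 times with Klf4 and 11.5 times with OSK, with no overlap of these libraries with GFP. The change with Klf4, 3.64 (SE 0.14, limma adjusted p = 4.93e-11), was the largest of any of the 39 genes against GFP, and those with Sox2 and OSK were 2.36 (SE 0.14, limma adjusted p = 2.28e-09) and 3.51 (SE 0.14, limma adjusted p = 4.65e-11). The rise with Oct4 was 0.51 (SE 0.14, limma adjusted p = 0.0108) and did not pass without Oct4 replicate 1 (0.30, adjusted p = 0.190, limma). E2F2, a related activator, read 34.8, 16.2 and 3.89 in GFP, 6.97 and 9.16 with Oct4, 42.6 and 53.9 with Sox2, 94.8 and 111 with Klf4 and 114 and 93.5 with OSK. Its GFP libraries spread widely, yet all Sox2, Klf4 and OSK libraries were above them. E2F2 rose by 2.84 with Klf4 (SE 0.56, limma adjusted p = 0.000891) and 2.85 with OSK (SE 0.56, limma adjusted p = 0.000649), and by 3.50 and 3.51 without GFP replicate 1. Its rise with Sox2, 1.76 (SE 0.56, limma adjusted p = 0.0183), was 2.42 without GFP replicate 1 and did not pass without either Sox2 library (adjusted p = 0.0599 and 0.117, limma).

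E2F8, a repressor of the same targets, was near the limit of detection, with 0 reads in both Oct4 libraries and at most 14 reads in any library. Its normalised counts were 13.9, 4.05 and 3.89 in GFP, 14.6 and 5.99 with Sox2, 10.4 and 6.86 with Klf4 and 8.67 and 2.20 with OSK. It reached the value of 10 needed for testing only in GFP replicate 1, Sox2 replicate 1 and Klf4 replicate 1. Taking 3 reads per library as the floor for Oct4, the GFP mean was at least 2.11-fold higher, but at least 1.15-fold higher without GFP replicate 1. The fall with Oct4 passed (limma adjusted p = 0.00992) and did not pass without either Oct4 library (adjusted p = 0.0506 and 0.0511, limma).

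The 2 E-type cyclins, which activate CDK2 at the start of S phase, differed in their calls. CCNE1 read 148, 112 and 92.3 in GFP, 101 and 84.7 with Oct4, 150.3 and 129 with Sox2, 71.7 and 70.8 with Klf4 and 106 and 102 with OSK. The Klf4 libraries were the lowest of all 11, a fall of 0.69 on the log2 scale against GFP (SE 0.19, limma adjusted p = 0.0123), which did not pass without either Klf4 library (adjusted p = 0.0600 and 0.0626, limma). CCNE2 rose by 1.01 with Sox2, 1.13 with Klf4 and 1.15 with OSK (SE 0.24 each). The normalised count of CCNE2 divided by that of CCNE1 was 0.342 to 0.558 in GFP, 0.446 to 0.575 with Oct4, 0.656 to 0.709 with Sox2, 1.27 to 1.65 with Klf4 and 0.990 to 1.02 with OSK. Klf4 and OSK were thus above GFP and Oct4 in every library, and Klf4 above OSK. The opposite-strand gene INTS8 covers 37.1% of the exon bases of CCNE2, and the part of its reads in these values was not tested.

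**Figure D4:**
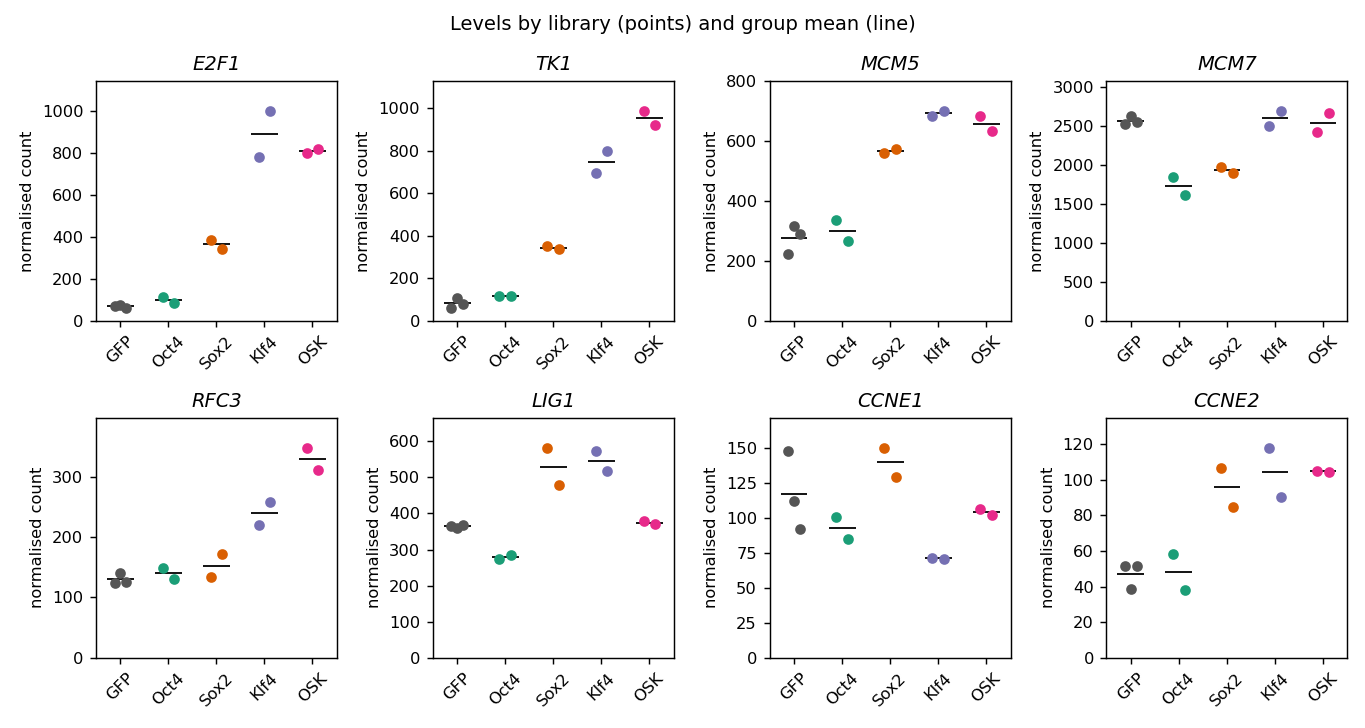
Normalised counts in each library (points) and group means (lines) for E2F1, TK1, MCM5, MCM7, RFC3, LIG1, CCNE1 and CCNE2, in GFP (n = 3), Oct4, Sox2, Klf4 and OSK (n = 2 each); each panel has its own axis from 0. E2F1 and TK1 stand at 62.6 to 119 in GFP and Oct4 and at 336.5 to 1001 in the other lines, while MCM7 is lowest with Oct4 and Sox2.

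The lines were also compared with each other, 6 comparisons that share libraries with those above. OSK exceeded Oct4 for 33 of 39 genes, and all 39 differences were positive, with a median difference of 1.03 (1.02 with E2F8 at its bound), where 40.3% of all genes were called in either direction and 18.4% as higher. Klf4 exceeded Oct4 for 32 genes (38 positive differences, median 0.96, all genes called 41.7%, and 20.0% as higher) and Sox2 exceeded it for 28 (39 positive differences, median 0.74, all genes called 33.4%, and 15.4% as higher). All 6 helicase genes and all 4 nucleotide genes were higher with OSK than with Oct4, MCM7 among them (0.55, SE 0.08, limma adjusted p = 3.98e-05). The largest difference between OSK and Oct4 was that of E2F2, 3.53 (SE 0.61, limma adjusted p = 0.000213). The counts of 33, 32 and 28 each include E2F8, which had 0 reads in both Oct4 libraries and 8 and 2 reads with OSK. With a filter on the mean level, which left E2F8 out, they were 32, 31 and 27 of 38 genes.

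Against Sox2, OSK was higher for 12 genes and lower for 1, LIG1, with a median of 0.22 and 40.5% of all genes called (20.0% higher and 20.5% lower), so that the share of these genes called (13 of 39) was below that of all genes. The 12 were MCM3, MCM4, MCM6, MCM7, E2F1, PCNA, RFC3, RFC4, RRM1, TK1, POLE and GINS3. TK1 (1.46, limma adjusted p = 9.10e-06) and E2F1 (1.15, limma adjusted p = 2.13e-05) differed the most. Of the 10 origin genes GINS3 passed between OSK and Sox2 (1.02, limma adjusted p = 0.000977). The other 9 did not pass, GINS1 among them at -0.46 (SE 0.20, limma adjusted p = 0.0886), which does not show that their levels were equal. Klf4 against Sox2 gave 13 higher and 1 lower (CCNE1), a median of 0.19 and 40.8% of all genes called (20.7% higher and 20.1% lower). Its largest differences were E2F1 (1.28, limma adjusted p = 6.53e-06) and TK1 (1.11, limma adjusted p = 0.000139).

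Between OSK and Klf4 only 3 of 39 genes passed, LIG1 as lower and RFC3 and GINS3 as higher, where 21.5% of all genes did (9.56% as higher and 11.9% as lower). The median difference was -0.01, and the 39 differences ran from -0.77 (E2F8) to 0.63 (GINS3). LIG1 also passed by DESeq2 (adjusted p = 0.00302), the 1 gene of the 39 that did. The count was 5 without GFP replicate 1, and 1 without GFP replicate 3, either Klf4 library or either OSK library. With 2 libraries per line, differences well above the standard error also failed to pass. GINS1 differed by -0.57 (SE 0.20, limma adjusted p = 0.0589) and CCNE1 by 0.54 (SE 0.21, limma adjusted p = 0.0869). For MCM10 the difference was -0.17 with an SE of 0.38. A miss of the threshold between OSK and Klf4 thus does not show equal levels. By mean alone, the highest group was OSK for 18 genes, Klf4 for 15 and Sox2 for 6. The lowest was Oct4 for 20, GFP for 18 and Klf4 for 1. These ranks include differences that did not pass the test, and were not counted over all genes.

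Other genes of these pathways were taken from lists of 92 genes, of which 91 were tested (RNASEH2A did not reach the minimum). With Klf4 39 were higher and 9 lower, with OSK 40 and 11, with Sox2 37 and 15, and with Oct4 14 and 22, and the medians were 0.13, 0.19, 0.18 and -0.02. These are 52.8%, 56.0%, 57.1% and 39.6% of the 91 genes, against 33.5%, 39.7%, 41.6% and 37.3% of all genes called in either direction, so that the share with Oct4 was near that of all genes. Of 17 other origin genes 11 were higher with Klf4 and with OSK (64.7% each), and 8 with Sox2 (47.1%). TICRR and MTBP, partners in origin firing, rose with OSK by 1.12 (SE 0.19, limma adjusted p = 0.000179) and 1.18 (SE 0.29, limma adjusted p = 0.00428). CDC7, the kinase that fires origins, fell with Oct4 from 90.4 to 123 in GFP to 49.9 and 53.8, by 1.01 on the log2 scale (SE 0.18, limma adjusted p = 0.000383), and rose with Klf4 by 1.10 (SE 0.18, limma adjusted p = 0.000209). MCMBP, which binds MCM subunits, fell by 0.50 on the log2 scale with Oct4 (SE 0.07, limma adjusted p = 5.25e-05).

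Of 17 further polymerase, clamp and maturation genes tested, 8 rose and 2 fell with Klf4 (58.8% called, against 33.5% of all genes). With OSK 5 rose and 2 fell (41.2%, near the 39.7% of all genes). TOP2A, the topoisomerase that separates replicated DNA, read 237 to 249 in GFP and 1964 and 2285 with Klf4, a rise of 3.12 (SE 0.09, limma adjusted p = 1.16e-12), and its rise with OSK was 2.82. PRIM2, the second primase subunit, rose with Sox2 by 1.51 (SE 0.16, limma adjusted p = 1.65e-06), while DSCC1, of an alternative clamp loader, fell by 1.47 on the log2 scale with Oct4 (SE 0.29, limma adjusted p = 0.000862) and POLE4 by 0.74 with Sox2 (SE 0.09, limma adjusted p = 9.14e-06). Of 16 genes of fork protection and chromatin assembly, 12 rose and 1 fell with OSK, against 39.7% of all genes called. CHEK1, the checkpoint kinase of stalled forks, read 102 to 120.4 in GFP, 976 and 995 with OSK, and by mean 232 with Sox2 and 348 with Klf4. OSK exceeded Klf4 for CHEK1 by 1.50 (SE 0.13, limma adjusted p = 3.17e-07). ASF1B, a histone chaperone, rose with Klf4 by 2.18 (SE 0.28, limma adjusted p = 1.75e-05), and SLBP, which binds histone mRNAs, and SSRP1, of the FACT chaperone, changed with Oct4 by -0.65 and -0.34 (limma adjusted p = 6.50e-06 and 0.00048).

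Other genes make nucleotides from small precursors. Of 17 purine and pyrimidine synthesis genes 3 rose and 7 fell with Sox2, 1 rose and 5 fell with Klf4, 3 rose and 4 fell with OSK, and 5 rose and 5 fell with Oct4. The shares called were 58.8% with Sox2 and with Oct4, against 41.6% and 37.3% of all genes. With Klf4 and OSK they were 35.3% and 41.2%, near the 33.5% and 39.7% of all genes. CTPS2, a CTP synthase, rose with Oct4 by 1.20 (SE 0.11, limma adjusted p = 3.24e-07) and UMPS, which makes UMP, with OSK by 1.00 (SE 0.09, limma adjusted p = 3.99e-07). IMPDH1, which starts GTP synthesis, fell with OSK by 1.08 on the log2 scale (SE 0.13, limma adjusted p = 5.78e-06) and PFAS, of purine synthesis, with Sox2 by 0.84 (SE 0.08, limma adjusted p = 4.80e-07). Of 12 other deoxynucleotide genes 7 rose with Klf4, and 5 rose and 2 fell with OSK. This is 58.3% called in each, against 33.5% and 39.7% of all genes. Both DCK, which salvages deoxycytidine, and SAMHD1, which breaks deoxynucleotides down, were among the risers, by 1.44 with Klf4 (SE 0.12, limma adjusted p = 1.01e-07) and 1.43 with OSK (SE 0.11, limma adjusted p = 3.02e-08). SHMT1, of folate metabolism, fell by 0.87 on the log2 scale with Sox2 (SE 0.07, limma adjusted p = 1.01e-07) and NME1, a nucleoside diphosphate kinase, by 0.72 with OSK (SE 0.19, limma adjusted p = 0.00652).

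Of 12 other E2F and RB family genes 8 rose and 2 fell with Sox2, 4 rose and 2 fell with Klf4 and with OSK, and 2 rose and 2 fell with Oct4. The share called was 83.3% with Sox2 and 33.3% with Oct4, and 6 of 12 genes were called with Klf4 and with OSK. Of all genes 41.6%, 37.3%, 33.5% and 39.7% were called with Sox2, Oct4, Klf4 and OSK, so that the share with Oct4 was near that of all genes. MYBL2, a cell-cycle transcription factor, rose with Klf4 by 1.49 (SE 0.19, limma adjusted p = 1.41e-05) and E2F7, a repressor related to E2F8, by 0.94 (SE 0.18, limma adjusted p = 0.00084). In the same line E2F3, an activator, fell by 0.58 on the log2 scale (SE 0.11, limma adjusted p = 0.000682) and E2F6, a repressor, by 0.70 (SE 0.10, limma adjusted p = 4.90e-05). Within the Klf4 line the activators E2F1 and E2F2 were thus higher and E2F3 lower than in GFP.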

How the data were processed

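RNA from 11 ARPE-19 libraries was enriched for polyadenylated transcripts and sequenced, per the labels' protocols. The deposited table holds a signal, which its values show to be gene counts that the authors divided by 1 factor per library and rounded to 2 decimals. Dividing by what 1 read is worth gave whole reads (tolerance 0.0061) for all values up to 200 and for at least 99.974% of nonzero values. STAR 2.7.1a and featureCounts 1.6.2 are named in the submitters' processing notes, as are human (GRCh38, hg38) and mouse (GRCm38, mm10) builds, without a role. The annotation and the use of strand are not given in the sources used here. Groups came from the sample titles.

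Changes were tested on log2(value + 1) by limma 3.58.1 under R 4.3.3, with a trended variance prior (6 residual and 9.21 prior degrees of freedom), and the added 1 makes changes of low genes too small. A gene needed 2 or more libraries with a value of 10 or more (18828 genes), and all 11 libraries entered 1 fit. The Benjamini-Hochberg adjustment covered all genes tested in each of 10 pairwise comparisons, with a threshold of 0.05. Tested on simulated data, the procedure recovered nearly all genes changed by known folds, with a share of false calls above the threshold. The simulation gave every gene and library the same relative spread and changed only genes above a set mean level. The libraries here were uneven, GFP replicate 1 the most, so the simulation does not give the error rate of these calls. Recovery at folds and levels outside that simulation was not tested. Alternatives were edgeR 4.0.16 and DESeq2 1.42.0 on the recovered reads, TMM scaling over all features, pseudocounts of 0.5 and 5, other filters, only the compared groups, a replicate block, and each replicate left out in turn.

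The genes and lists were chosen with earlier results of these data known. All 11 values are given for the 2 genes with the largest and the 1 with the smallest change from GFP in each role, and for genes called in opposite directions. Of each further list at most 2 rises and 2 falls are named, the largest over the 4 comparisons with GFP. MCM7, E2F8 and CHEK1 between lines were added after their values were seen. Exon lengths and overlaps came from GENCODE 29 (GRCh38), and 8 genes have annotated pseudogenes, whose values reached at most 4.97. Libraries of a group differed beyond sampling noise, and the counting precision rests on 7962 to 16923 reads per library over the 39 genes.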

Additional observations from a re-analysis of the deposited data

How the results depend on the processing

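Of 95 changes from GFP that passed the test, 67 passed under each of 22 alternatives, 28 did not pass under at least 1, and 0 changed sign in those alternatives. The calls with Oct4 were the least stable: 14 in all, 9 in a fit of only the compared groups, and 6 to 15 with 1 replicate left out. The calls between OSK and Klf4 were 3, and 1 with DESeq2, TMM scaling, no filter, the replicate number as a block or GFP replicate 1 and OSK replicate 1 left out, 5 with only the compared groups, and 1 to 5 with 1 replicate left out. The median change with Sox2 was 0.64, and 0.71 with TMM scaling or the filter on the mean level and 0.76 without GFP replicate 1 and OSK replicate 1. That of OSK was 0.81, and 0.93 without those 2 libraries. With 1 replicate left out, the medians ran from -0.16 to -0.012 for Oct4, 0.62 to 0.76 for Sox2 and 0.74 to 0.93 for OSK against GFP. They ran from 0.88 to 1.08 for OSK and 0.89 to 1.03 for Klf4 against Oct4, and 0.19 to 0.25 for Klf4 against Sox2. The cause of these shifts was not tested.

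Over 20 pairs of same-numbered libraries the deviations from the group means correlated between -0.0693 and 0.435, and 2 pairs exceeded 0.1, both of GFP with OSK (0.435 and 0.310), the groups whose replicate 1 stood apart in features with reads. The other 18 pairs were below 0.1. In a group of 2 libraries the deviations mirror each other, so 2 such groups give the same value for both replicate numbers. The 20 values are thus not independent. The labels give no source for the numbers, and the libraries were not treated as paired. With the replicate number as a block the median change with Oct4 was -0.14, and its calls were 1 higher and 11 lower. Only GFP has a replicate 3, so this block takes GFP replicate 3 out of the changes. Leaving that library out gave the same median, so the shift does not measure pairing. Depth limits the genes with the fewest reads, such as POLE2, E2F2 and E2F8.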
